A study of Arabidopsis thaliana with 12 samples.

Results

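The response of wild-type Arabidopsis thaliana seedlings to the hormone abscisic acid (ABA) was described across genes from 6 of the 12 RNA-seq libraries of the study. The members were chosen by label alone, with 3 libraries of Col-0 seedlings treated with ABA set against 3 libraries of untreated Col-0 seedlings, both groups being wild type and 12 days old. Col-0 is the common laboratory accession from which the reference genome was made. The other 6 libraries came from seedlings of a kinase mutant labelled m9, with and without ABA, and entered here through the count filter, the shared estimate of the spread between replicates and the principal component analysis. With the wild-type libraries alone 19999 genes were tested, with 1484 induced and 1240 repressed, against 1481 and 1476 with all 12 libraries. The ABA dose and the time of treatment are not given in the sources used here, nor is whether the 3 libraries of a group came from separate cultures, so that p-values measure the spread between these libraries. RNA was taken from seedlings as a whole, and in such samples fewer cells of a type and less RNA per cell cannot be told apart.

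ABA is a hormone of water deficit and of seed maturation. It is bound by PYR/PYL receptors, which then inhibit clade A protein phosphatases 2C (PP2Cs), and this frees SnRK2 kinases to phosphorylate bZIP factors of the ABF group. The ABFs bind ABA-responsive elements (ABREs), short DNA motifs around ACGTG, in front of genes for protective proteins, osmolyte enzymes and cuticle lipids. In seedlings the hormone is known for closing stomata, slowing growth and preparing tissues for dehydration.

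A total of 20617 genes passed a filter on low counts and were tested with edgeR's quasi-likelihood test, with p-values adjusted by the Benjamini-Hochberg method (FDR). In what follows, a gene rose or fell when its FDR was below 0.05, and it was induced or repressed when it also differed by at least 3-fold. Of all genes tested, 32.2% rose and 36.4% fell, 7.18% were induced and 7.16% were repressed, and in 70.1% the 3 ABA libraries did not overlap with the 3 control libraries. For every gene whose values per library are given here the libraries did not overlap, unless the text says so. The median log2 fold change of ABA over control was -0.06 over all tested genes. Of the genes past 3-fold 50.1% were induced, against 40.2% with upper-quartile factors and 32.2% with plain library totals, scalings that moved the median of all genes by -0.16 and -0.30. These shares are the background against which the counts of each gene list should be read. Levels are given in CPM, that is, counts brought to a common library size with TMM factors, in the order of the replicates 1 to 3. Members of a list that were too low to be tested are left out of its counts, so that the counts describe the tested members and not the whole family.

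The ABA libraries held 21602836 to 26661613 counts and the control libraries 16632701 to 19945936. In a principal component analysis of all 12 libraries, the ABA libraries lay between 92.7 and 101.7 on a first axis holding 80.5% of the variance, and the control libraries lay at -59.7, -65.7 and -39.2. Control replicate 3 was thus the control nearest to the ABA libraries, and for some lists and genes values without it are given too. Values given only with it can still depend on it. The labelled tissue was checked against marker genes of its cell types. The 9 root markers summed to 1178, 1019 and 1051 CPM with ABA, against 1845, 1833 and 1755 CPM in controls, and 3 of them rose and 3 fell. All 3 mesophyll markers fell, with sums of 12760, 11970 and 11790 CPM with ABA against 19290, 20300 and 19060 CPM in controls. The 5 guard cell markers summed to 34.0 to 37.0 CPM with ABA against 48.9 to 57.6 CPM in controls (0 rose, 2 fell). The 3 epidermis markers summed to 964 to 1084 CPM with ABA against 553 to 717 CPM in controls (2 rose), the 2 phloem markers to 222 to 249 CPM with ABA against 97.7 to 107 CPM in controls (1 rose), and the 2 xylem markers to 96.9 to 109.5 CPM with ABA against 43.3 to 58.5 CPM in controls (both rose). Of 7 markers of maturing seeds 0 passed the filter, and of 4 flower markers 1 did. The part of these shifts in the changes of gene lists below was not tested.

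The genes of ABA perception and signalling did not all move in the same direction, with most receptors lower and the phosphatases higher. At the receptor step, 7 of the 10 tested PYR/PYL genes (14 in all) fell and 2 rose, with a median log2 fold change of -2.03. PYL4 (AT2G38310) was at 5.51, 5.91 and 4.93 CPM with ABA, against 311, 237 and 332 CPM in controls. Its log2 fold change was -5.74 ± 0.14 (SE), with an edgeR FDR of 1.71e-12. PYL6 stood at 0.456, 0.419 and 0.268 CPM with ABA and 33.4, 30.4 and 35.1 CPM in controls, a log2 fold change of -6.39 ± 0.17. For both genes every ABA library lay far below every control library. PYR1 (AT4G17870) had 14.8, 13.8 and 14.2 CPM with ABA against 74.3, 53.4 and 73.5 CPM in controls. PYL5 had 21.4, 19.6 and 23.2 CPM with ABA against 87.6, 106 and 144 CPM in controls. Their log2 fold changes were -2.23 and -2.39. PYL1, PYL2 and RCAR3 (PYL8), given to complete the family, also fell, with log2 fold changes of -1.82, -2.29 and -1.03. RCAR1 (PYL9) did not pass the test, with 7.06, 6.45 and 6.27 CPM with ABA and 5.76, 4.67 and 7.39 CPM in controls, and its libraries overlapped. The receptors that rose were PYL3, at no more than 1.05 CPM in any library, and PYL7, which shares 47.8% of its exon windows of 50 bases with an overlapping gene, so that its counts are uncertain. Summed over the tested receptors, the level was 142 ± 6.45 CPM with ABA and 668 ± 90.4 CPM in controls (SD, n = 3 each).

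The phosphatases that the receptors inhibit went the other way. All 9 clade A PP2C genes were induced, with a median log2 fold change of 4.88. PP2CA (AT3G11410) was at 572, 535 and 593 CPM with ABA and 14.6, 14.2 and 15.2 CPM in controls, a log2 fold change of 5.27 ± 0.10. ABI1 and ABI2, in which dominant mutations make plants insensitive to ABA, followed. ABI1 was at 642, 549.9 and 648 CPM with ABA and 49.3, 47.8 and 47.2 CPM in controls. ABI2 was at 207, 188 and 210.5 CPM with ABA and 7.27, 6.56 and 6.67 CPM in controls. HAB1 and HAB2 rose by 3.63 and 2.45 on the log2 scale. The HAI phosphatases were at no more than 1.104 CPM in the control seedlings. HAI1 (AT5G59220) had 531, 457 and 530.5 CPM with ABA against 0.551, 1.001 and 1.104 CPM in controls, with a log2 fold change of 9.15 ± 0.18. HAI3 had 6483 counts in the 3 ABA libraries and 2 in the 3 control libraries, a ratio of 2954 after scaling, with an exact 95% counting interval of 817 to 24400. HAI2 had 7436 counts with ABA against 5 in controls, a ratio of 1355 with an interval of 581 to 4175. AHG1, a phosphatase known from seeds, was at 1.41, 1.05 and 2.04 CPM with ABA against 0.0501, 0.278 and 0 CPM in controls, and its log2 fold change of 3.78 was 5.63 without control replicate 2 and 3.18 without control replicate 3. The summed level of the 9 genes was 3199 ± 226 CPM with ABA and 171 ± 15.2 CPM in controls, a ratio of 18.7.

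Of the group A bZIP factors, to which the ABFs belong, 10 of 12 were tested, 5 rose and 1 fell. ABF3 (AT4G34000) was at 496, 422 and 448 CPM with ABA and 29.7, 37.5 and 31.2 CPM in controls (3.80 ± 0.12 on the log2 scale). ABF2 had 144, 125 and 140 CPM with ABA against 22.8, 31.04 and 24.6 CPM in controls. ABI5, the factor that holds back seedling establishment, had 47.5, 36.6 and 44.2 CPM with ABA against 3.96, 6.17 and 5.86 CPM in controls. ABF4 and ABF1 rose less, by 1.75 and 0.98, and 27.2% of ABF4's exon windows are shared with another annotated gene. AREB3, EEL, GBF4 and BZIP27 did not pass the test, with log2 fold changes of 0.11, 0.09, 0.12 and 0.09 and overlapping libraries. FD, the partner of the flowering signal FT, fell and had 2.23, 3.39 and 2.95 CPM with ABA against 3.56, 4.67 and 5.95 CPM in controls.

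Genes for making and for breaking down ABA rose together. All 4 ABA 8'-hydroxylases, the CYP707A enzymes that start ABA breakdown, were induced. CYP707A1 (AT4G19230) was at 521, 469.6 and 538 CPM with ABA and 5.36, 5.67 and 4.27 CPM in controls, a log2 fold change of 6.64 ± 0.16. CYP707A4, CYP707A3 and CYP707A2 rose by 3.96, 2.64 and 2.37. Of 10 genes of ABA synthesis 7 were tested, 5 rose and 0 fell. NCED3 (AT3G14440), the dioxygenase that sets the pace of ABA synthesis in drought, had 25.4, 22.9 and 21.01 CPM with ABA against 0.401, 0.779 and 0.384 CPM in controls (5.48 ± 0.22). AAO3, the oxidase of the last step, had 259.8, 255 and 291 CPM with ABA against 40.99, 34.4 and 46.2 CPM in controls. ABA1, the zeaxanthin epoxidase at the start of the path, had 893, 818 and 862 CPM with ABA against 304, 261 and 339.5 CPM in controls. In all of these the ABA libraries lay above every control library.

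**Figure D1:**
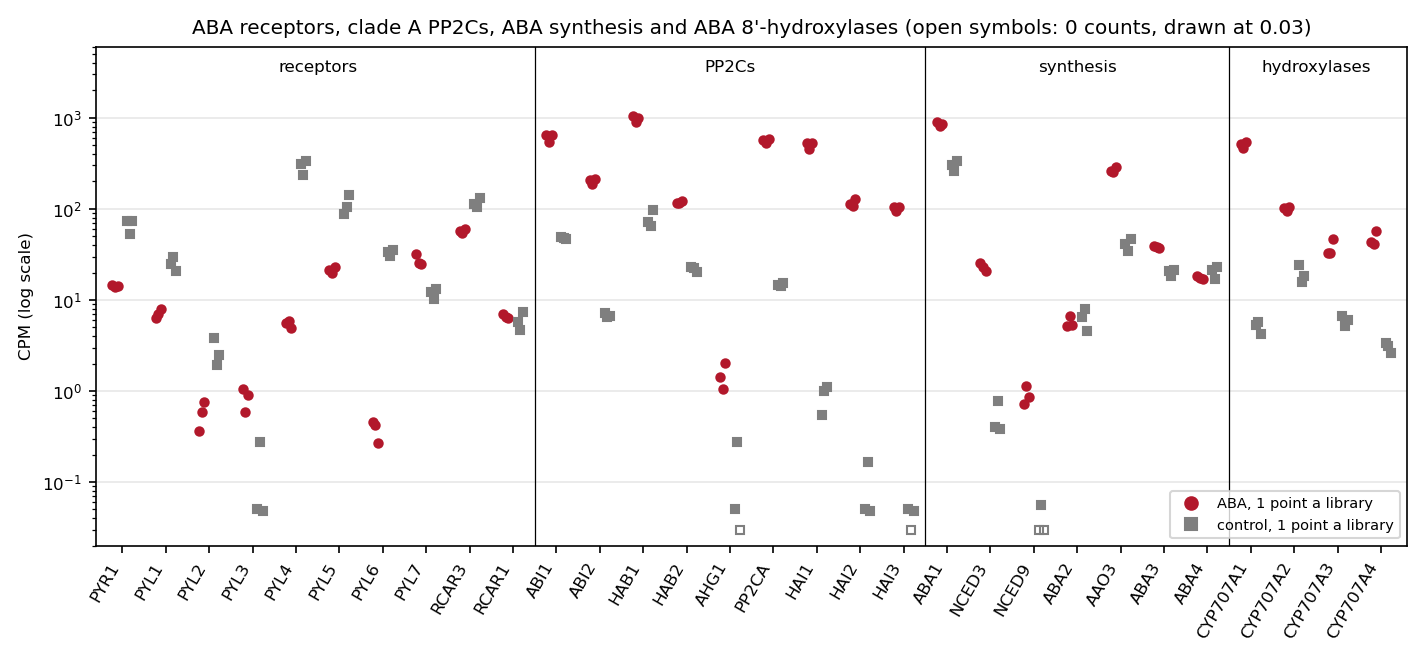
CPM per library on a log scale for the tested ABA receptors, clade A PP2Cs, ABA synthesis genes and ABA 8'-hydroxylases, with 3 ABA libraries (red circles) left of 3 control libraries (grey squares) for each gene and libraries without counts drawn open. Receptors such as PYL4 and PYL6 lie lower with ABA, whereas all 9 PP2Cs and all 4 hydroxylases lie higher, HAI1 to HAI3 from control levels of no more than 1.1 CPM.

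The induced genes held a larger share of the counts with ABA, a direction set by their choice from the same contrast. This holds too for the repressed genes and for the 10 genes with the largest gain or loss of CPM, so that only sizes are described. All 4 genes that the study uses as ABA markers were induced, a count that is no independent evidence, since the genes were taken from the study's own text. LTI65 (AT5G52300), known as RD29B, was at 2589, 2347 and 2698 CPM with ABA and 1.203, 3.78 and 4.32 CPM in controls, a log2 fold change of 9.68 ± 0.33 (edgeR FDR 3.67e-11). RAB18 (AT5G66400), a dehydrin, was at 4479, 4346 and 4870 CPM with ABA and 29.01, 42.3 and 37.7 CPM in controls, a change of 6.97 ± 0.24. KIN1 and COR15A, cold- and drought-inducible protective proteins, rose by 8.26 and 5.63. The induced genes together held 19.3% ± 0.731 of all counts with ABA and 4.04% ± 0.829 in controls (SD, n = 3 each), whereas the repressed genes held 0.578% ± 0.0579 with ABA and 3.20% ± 0.430 in controls. The 10 induced genes that gained the most CPM alone held 4.27% ± 0.148 with ABA, against 0.636% ± 0.261 in controls. They were COR47, ERD10, LTI78 (RD29A), LEA7, RAB18 and LTI65 among protective proteins, ADC2 of polyamine synthesis, the raffinose-family gene SIP2, and ASN1 and SEN1, which are known from sugar-starved leaves. COR47 had 8486, 7978 and 9039 CPM with ABA against 675, 890.3 and 727 CPM in controls. ADC2, an arginine decarboxylase, had 5201, 4383 and 5597 CPM with ABA against 394, 356 and 585 CPM in controls. ASN1 and SEN1 were already higher in control replicate 3. ASN1 was at 7516, 6574 and 6736 CPM with ABA and 1100, 1043 and 2887 CPM in controls, and its log2 fold change of 2.05 was 2.70 without that library. For SEN1 (AT4G35770), with 5224, 5317 and 5106 CPM with ABA against 1076, 874 and 2638 CPM in controls, the change of 1.77 became 2.42 without it, and fell short of 3-fold without control replicate 1 or 2 (1.57 and 1.49).

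The 10 repressed genes that lost the most CPM held 0.126% of counts with ABA and 0.661% in controls. AT5G26280, a TRAF-like protein, had 65.95, 55.7 and 52.8 CPM with ABA against 676, 605 and 802 CPM in controls. PEN3, a transporter of the plasma membrane known for defence against fungi, had 105, 111 and 120.5 CPM with ABA against 538, 469.6 and 488 CPM in controls. ACP4, the main acyl carrier protein of leaf plastids, had 93.6, 86.03 and 109.8 CPM with ABA against 334, 469.5 and 272 CPM in controls. Also among them were AT2G10940 of the lipid-transfer superfamily, the receptor gene PYL4, the Rubisco subunit gene RBCS1B, and GER1 and MTO3, whose counts are uncertain because they share 91.7% and 22.8% of their exon windows with other genes. PRP4, a proline-rich wall protein, and RPS6, a ribosomal protein, were on the list as well, at log2 fold changes of -1.78 and -1.62, which came to -1.49 and -1.32, short of 3-fold, without control replicate 2. RPS6 also fell short without ABA replicate 1 (-1.56) or ABA replicate 2 (-1.58).

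Proteins that protect cells in the dry state rose in large part. Late embryogenesis abundant (LEA) proteins and dehydrins are small hydrophilic proteins that accumulate in seeds and in drying tissue. Of 54 listed genes 44 were tested, 33 rose and 6 fell, 28 were induced and 5 were repressed. Their median log2 fold change was 3.47, or 3.44 with genes that had no counts in any library of a group set to a bound. Many members passed the filter only through libraries where they were high. With at least 10 counts in every library 20 were tested, 12 rose, 7 were induced and 3 were repressed. LEA7 (AT1G52690) stood at 3410, 3095 and 3215 CPM with ABA and 0.501, 1.28 and 1.15 CPM in controls, a log2 fold change of 11.70 ± 0.25 (edgeR FDR 5e-13). LEA4-5 (AT5G06760) was at 852, 707 and 822 CPM with ABA and 0.601, 1.56 and 0.912 CPM in controls. AT3G17520 was at 635, 568 and 675 CPM with ABA and 0.1002, 0.111 and 0.432 CPM in controls, and its log2 fold change of 11.43 was 12.46 without control replicate 3. All 3 lay below 2 CPM in every control library. AT5G66780 had 4905 counts in the ABA libraries and 6 in the control libraries, a ratio of 745 with a 95% counting interval of 342 to 2031. The summed level of the tested members was 21233 ± 1160 CPM with ABA and 2433 ± 95.3 CPM in controls, a ratio of 8.73. The family did not move as one. AT2G41990, annotated as a LEA protein, had 0.729, 1.09 and 0.589 CPM with ABA against 15.5, 11.2 and 14.6 CPM in controls, a change of -4.07. The number of repressed members was 3 without control replicate 2.

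Lipid droplets, the oil bodies of seeds and of stressed leaves, were covered by 12 listed genes, of which 8 were tested, 6 rose and 0 fell. RD20 (AT2G33380), a caleosin of the droplet surface, was at 538, 460.1 and 571 CPM with ABA and 1.25, 0.8901 and 1.54 CPM in controls (8.72 ± 0.21). AT2G47780, of the rubber elongation factor family, had 14.1, 10.4 and 11.9 CPM with ABA against 0.251, 0.334 and 0.192 CPM in controls. The 8 listed seed storage proteins, by contrast, were all too low to be tested. Rises were thus seen among LEA and droplet proteins, while seed storage proteins could not be tested at this depth.

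The ABRE, the site read by the ABFs, was looked for in the promoters of these genes. Promoters are shown here because the induced and repressed genes differed in how many held it. The sequences are of the TAIR10.1 assembly, which has the coordinates of TAIR10, and run from 250 bases before to 50 bases after the annotated gene start, 5′ to 3′ on the strand of the gene, with each ABRE core (ACGTG on either strand) in capitals. The first 4 belong to named induced genes with 4 separate cores each, and the last 2 to named repressed genes with 2. They were picked for holding the most cores among the named genes of their direction, with ties ordered by fold change, and are extremes.
LEA7, chr1:19619474-19619773, plus strand: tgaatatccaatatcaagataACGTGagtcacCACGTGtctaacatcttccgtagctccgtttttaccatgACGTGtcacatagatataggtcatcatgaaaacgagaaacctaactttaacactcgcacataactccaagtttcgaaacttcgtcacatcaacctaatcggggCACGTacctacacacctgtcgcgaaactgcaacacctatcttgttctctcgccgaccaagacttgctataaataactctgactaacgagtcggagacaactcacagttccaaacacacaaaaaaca
LTI65, chr5:21236771-21237070, plus strand: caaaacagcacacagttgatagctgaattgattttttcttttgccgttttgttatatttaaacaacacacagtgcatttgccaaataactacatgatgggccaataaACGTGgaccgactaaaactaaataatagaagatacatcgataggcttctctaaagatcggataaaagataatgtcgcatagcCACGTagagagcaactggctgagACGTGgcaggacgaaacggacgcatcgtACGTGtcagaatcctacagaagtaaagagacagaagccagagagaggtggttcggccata
PP2CA, chr3:3585801-3586100, minus strand: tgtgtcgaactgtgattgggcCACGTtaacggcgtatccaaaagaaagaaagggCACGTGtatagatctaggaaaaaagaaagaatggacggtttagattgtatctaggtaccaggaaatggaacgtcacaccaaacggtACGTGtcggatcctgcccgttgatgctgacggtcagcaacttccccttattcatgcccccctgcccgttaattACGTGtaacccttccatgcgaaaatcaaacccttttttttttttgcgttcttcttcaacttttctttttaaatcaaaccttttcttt
GBF3, chr2:18999930-19000229, plus strand: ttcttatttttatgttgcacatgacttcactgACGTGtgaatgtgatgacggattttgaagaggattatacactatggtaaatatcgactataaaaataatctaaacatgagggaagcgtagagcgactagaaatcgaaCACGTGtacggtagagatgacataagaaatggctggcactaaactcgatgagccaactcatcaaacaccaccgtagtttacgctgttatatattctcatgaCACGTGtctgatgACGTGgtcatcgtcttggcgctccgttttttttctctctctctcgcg
AT2G43140, chr2:17935699-17935998, minus strand: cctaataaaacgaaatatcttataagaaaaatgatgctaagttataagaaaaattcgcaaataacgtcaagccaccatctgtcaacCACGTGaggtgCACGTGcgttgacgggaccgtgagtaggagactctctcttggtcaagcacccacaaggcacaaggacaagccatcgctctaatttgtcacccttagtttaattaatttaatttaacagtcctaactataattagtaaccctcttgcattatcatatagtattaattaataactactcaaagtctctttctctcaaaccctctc
NAC048, chr3:1172437-1172736, plus strand: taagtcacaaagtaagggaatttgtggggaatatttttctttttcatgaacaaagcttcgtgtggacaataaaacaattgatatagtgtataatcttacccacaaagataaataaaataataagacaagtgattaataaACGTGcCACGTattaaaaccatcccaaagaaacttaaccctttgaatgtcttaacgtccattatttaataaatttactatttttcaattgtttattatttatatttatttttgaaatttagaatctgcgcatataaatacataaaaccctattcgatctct

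Over the 19953 tested genes with a promoter of this length, 28.3% held an ABRE core, and 12.3% held 2 or more matches counted over both strands. The core was in 47.6% of the 1459 induced promoters and in 25.2% of the 1425 repressed ones. The share rose with the size of the change, with 30.6% of genes that rose less than 2-fold, 39.5% at 2- to 3-fold, 44.1% at 3- to 10-fold and 56.9% of the 408 genes that rose at least 10-fold. Among genes that fell it stayed between 22.5% and 27% at every size of change, against 26.2% of genes that did not pass the test. The longer ABRE (ACGTGGC or ACGTGTC) was in 21% of induced promoters, 3.93% of repressed promoters and 9.03% of all promoters. The G-box (CACGTG), which contains the core, gave 18.8%, 4.7% and 8.99% in the same order. By position, 16.4% of the induced genes had a core within the 50 bases from 100 to 50 bases before the start, against 6.95% of the repressed genes and 8.02% of all. A match is a run of letters and not a measured binding site.

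**Figure D2:**
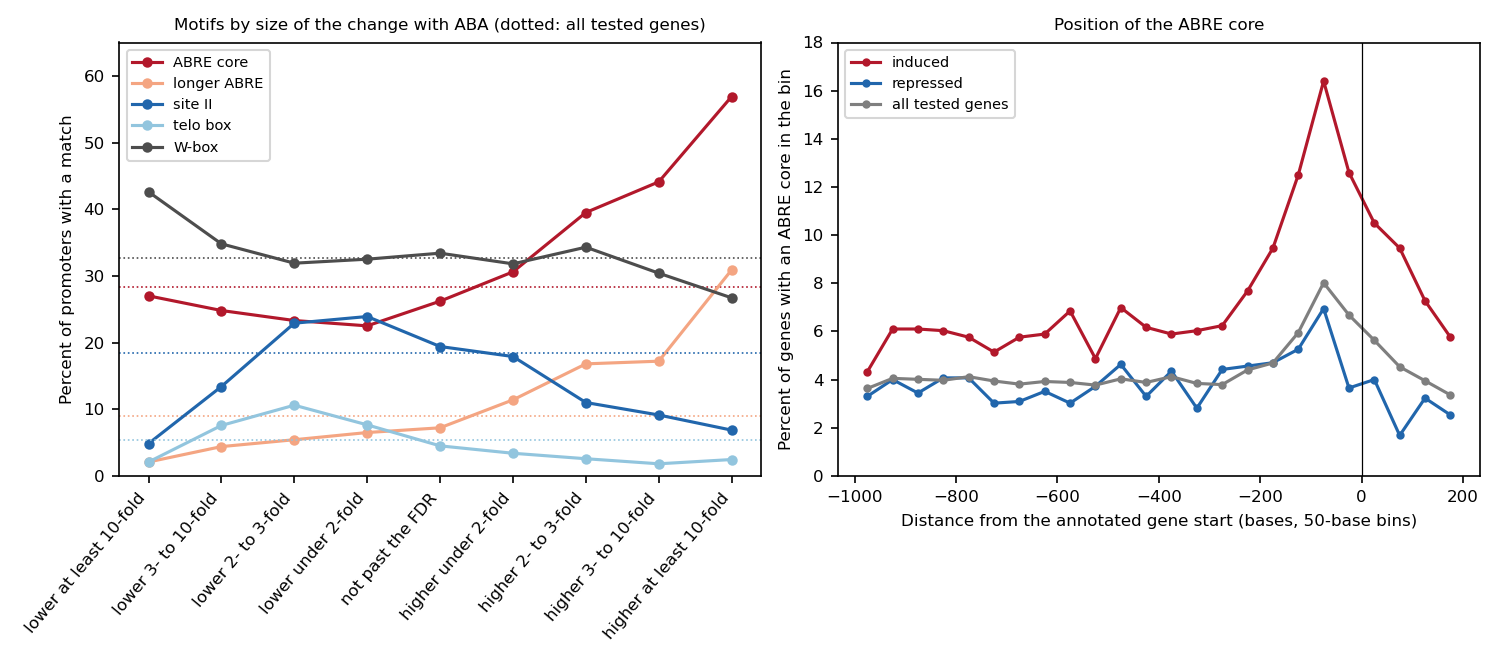
Left, percent of promoters (250 bases before to 50 after the gene start) that hold each motif, by the size and direction of the change with ABA, with dotted lines at the percent over all tested genes. Right, percent of induced, repressed and all tested genes with an ABRE core in each 50-base bin around the annotated start. The ABRE core climbs to 56.9% in genes that rose at least 10-fold and peaks at 16.4% of induced genes just before the start, while site II and the telo box are most frequent in genes that fell less than 3-fold.

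Among lists, an ABRE core was in 30 of 44 LEA promoters (68.2%), in 14 of 16 promoters of the circadian clock (87.5%) and in 8 of 10 promoters of JAZ repressors. Not every strongly induced gene held one. HAI1 and the factors HB-7, HSFA6A and HSFA6B had 0 cores in this window, which says only that these letters are not there. The dehydration-responsive element (GCCGAC), bound by DREB factors, was in 5.55% of induced, 3.02% of repressed and 3.7% of all promoters. The W-box of WRKY factors (TTGACC or TTGACT) was in 29.3% of induced, 36.4% of repressed and 32.7% of all promoters, and in 42.6% of genes that fell at least 10-fold. Each motif was searched on both strands.

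Of 1253 transcription factor genes listed in 19 families 873 were tested, 356 rose (40.8%) and 243 fell (27.8%), and 132 were induced and 55 repressed. Their median log2 fold change was 0.15, which became -0.16 when libraries were scaled by their totals without TMM factors, a scaling that moved the median of all genes by -0.30. The counts turned round too, with 252 higher and 346 lower under plain library totals. The median of all genes was -0.06 and -0.37 under the same scalings. The families differed in their balance. Of the 72 NAC factors tested (107 listed) 41 rose and 10 fell, and of the 18 heat shock factors 11 rose and 1 fell. Of the 99 MYB factors 52 rose and 28 fell, or 41 and 37 with plain library totals. NF-Y factors, which bind CCAAT boxes, had 17 of 29 higher and 5 lower. The balance was the other way in homeobox factors (16 of 72 rose, 34 fell), GATA factors (3 of 27 rose, 13 fell) and TCP factors (4 of 17 rose, 9 fell), families that hold many regulators of cell division and organ growth. At 3-fold, however, 10 homeobox factors were induced and 3 repressed, or 6 and 8 with plain library totals. Of 55 WRKY factors 18 rose and 15 fell, or 16 and 25 with plain library totals. Of 106 bHLH factors 38 rose and 35 fell, or 18 and 51 with plain library totals.

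**Figure D3:**
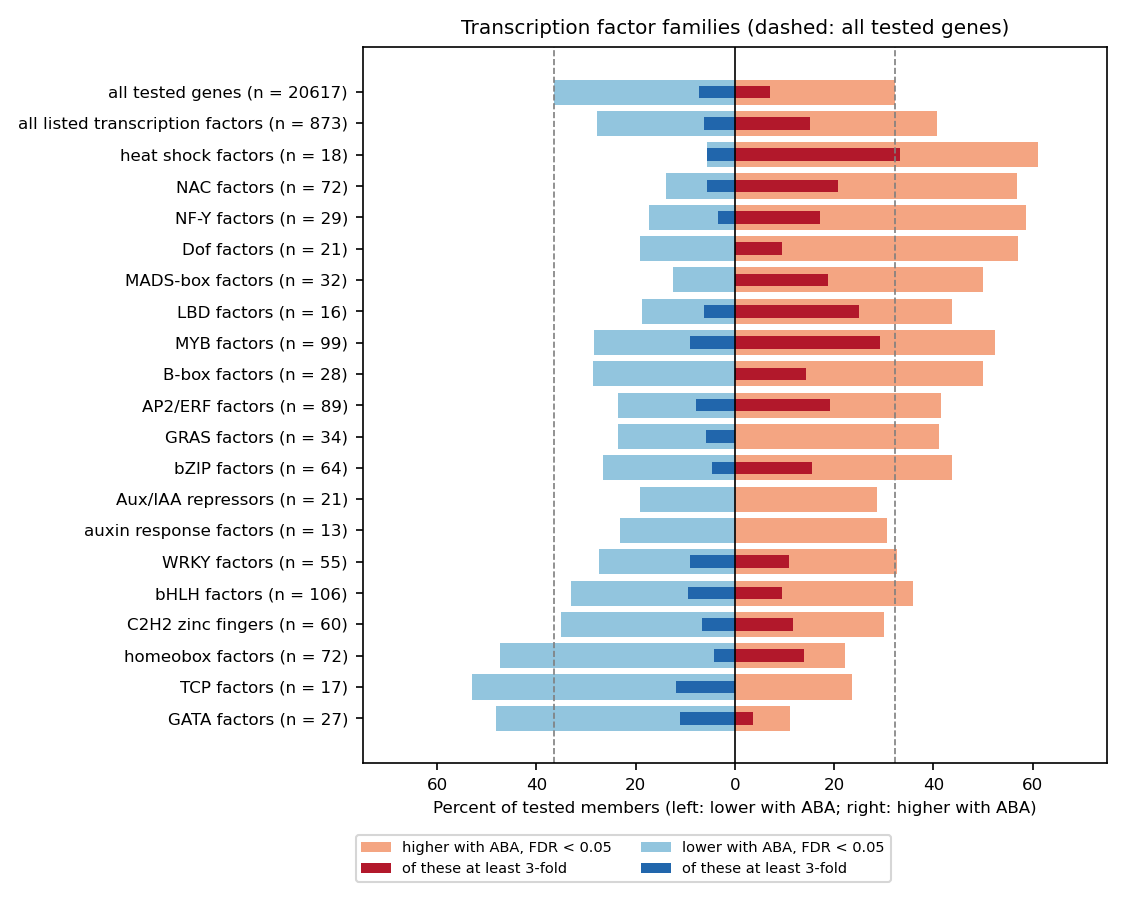
Percent of the tested members of each transcription factor family that fell (left) or rose (right) with ABA at an FDR below 0.05, in pale bars, and of these the percent at least 3-fold, in dark bars. Dashed lines mark 36.4% lower and 32.2% higher over all tested genes. In the pale bars heat shock, NAC and NF-Y factors lie to the right, and GATA, TCP and homeobox factors to the left. The dark bars of homeobox factors are longer on the right, at 13.9% against 4.17%.

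The factors with the largest gains came from several families and had low counts in controls. HB-7 (AT2G46680), a homeodomain-leucine zipper factor known to respond to drought, was at 941, 843 and 989 CPM with ABA and 5.86, 7.68 and 7.68 CPM in controls, a log2 fold change of 7.03 ± 0.13 (edgeR FDR 3.51e-13). Its close relative HB-12 had 269, 259 and 265 CPM with ABA against 6.71, 6.84 and 9.79 CPM in controls (5.08). HB21, of the same class and known from bud dormancy, had 12.2, 12.6 and 12.3 CPM with ABA against 0.451, 0.223 and 0.384 CPM in controls. The median of the homeobox family was -0.29. HSFA6B was at 143, 134 and 155 CPM with ABA and 1.55, 1.39 and 1.296 CPM in controls (6.67 ± 0.13). HSFA6A was at 56.4, 52.1 and 50.3 CPM with ABA and 0.0501, 0.334 and 0.144 CPM in controls. Its log2 fold change of 8.23 was 9.0 without control replicate 2. Both are heat shock factors of class A. The small heat shock proteins, the HSP20 family that such factors can activate, were mixed, with 8 of 34 tested higher and 5 lower and a median of 0.17. The number that fell was 3 without ABA replicate 1 or 2 or with the wild-type libraries alone, and 8 with plain library totals.

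Among NAC factors, NAC019 (AT1G52890) was at 109.6, 89.1 and 110.2 CPM with ABA and 0.952, 0.723 and 2.16 CPM in controls, with a log2 fold change of 6.30, or 6.92 without control replicate 3. RD26 (ANAC072), a close relative known for drought and senescence, had 496, 431 and 478 CPM with ABA against 22.6, 22.98 and 38.6 CPM in controls (4.06). NAC032 had 241, 197 and 222 CPM with ABA against 16.4, 10.6 and 16.7 CPM in controls. NAC074 had 11.99, 14.7 and 12.9 CPM with ABA against 0.551, 0.0556 and 0.432 CPM in controls. Among MYB factors, MYB102 (AT4G21440) was at 55.3, 44.98 and 58.2 CPM with ABA and 0.251, 0.111 and 0.576 CPM in controls (7.33, or 8.12 without control replicate 3). MYB74 was at 60.1, 51.3 and 67.04 CPM with ABA and 1.75, 1.56 and 1.15 CPM in controls. MYB121 had 432 counts in the ABA libraries and 1 in the control libraries, a ratio of 394 with a 95% counting interval of 70.3 to 15580. FBH3 (AT1G51140), a bHLH factor, was at 153, 145 and 149.9 CPM with ABA and 5.96, 6.01 and 6.15 CPM in controls (4.63 ± 0.09). GBF3 (AT2G46270), a bZIP factor that binds the G-box and whose promoter with 4 ABRE cores is printed above, had 239, 211 and 230.1 CPM with ABA against 16.5, 16.6 and 25.3 CPM in controls (3.54). RAP2.6, of the AP2/ERF family, had 405, 309 and 424 CPM with ABA against 36.6, 34.4 and 72.8 CPM in controls. NF-YA1 had 108, 93.5 and 89.8 CPM with ABA against 22.6, 25.8 and 25.7 CPM in controls.

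**Figure D4:**
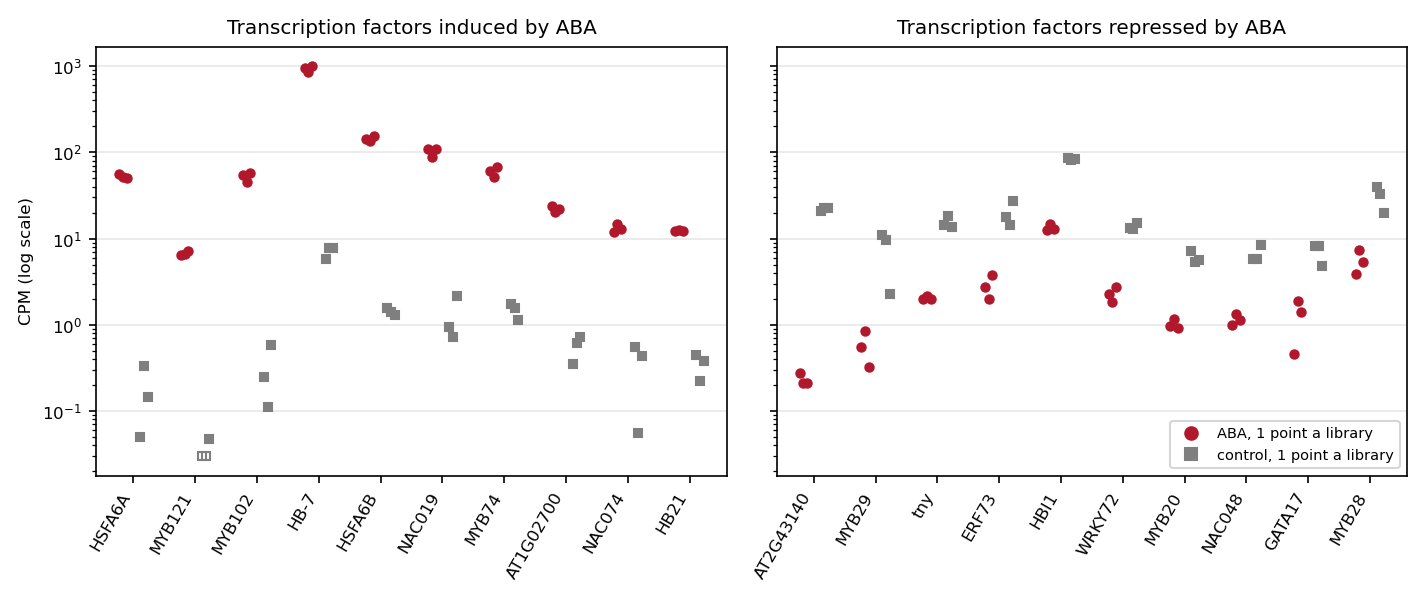
CPM per library on a log scale for the 10 induced (left) and 10 repressed (right) transcription factors with the largest fold change, with ABA libraries in red circles left of control libraries in grey squares and libraries without counts drawn open. HB-7 lies at 941, 843 and 989 CPM with ABA and below 8 CPM in controls, and AT2G43140 lies below 0.3 CPM with ABA against more than 20 CPM in controls.

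Among the repressed factors, AT2G43140, a bHLH factor whose promoter is printed above, had 0.273, 0.209 and 0.214 CPM with ABA against 21.1, 22.4 and 22.6 CPM in controls, a log2 fold change of -6.53 ± 0.15. HBI1, a bHLH factor known to promote cell elongation, was at 12.4, 14.7 and 12.8 CPM with ABA and 87.04, 81.5 and 83.02 CPM in controls (-2.65 ± 0.11). WRKY72 had 2.28, 1.84 and 2.73 CPM with ABA against 13.4, 12.8 and 15.2 CPM in controls. WRKY18 had 6.93, 7.83 and 6.97 CPM with ABA against 22.9, 21.5 and 27.4 CPM in controls, both WRKYs being known from pathogen responses. ERF73, known from hypoxia, and tny (TINY), a DREB-type factor, had log2 fold changes of -2.82 and -2.89. MYC4, a bHLH factor of the jasmonate response, had 3.69, 4.398 and 2.73 CPM with ABA against 16.4, 13.1 and 14.5 CPM in controls. TCP11 and GATA6 fell as well, with log2 fold changes of -1.88 and -2.17. MYB28 and MYB29 also fell and are described with the pathway that they control.

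Genes of surface lipids rose. Cuticular wax covers the shoot, and suberin seals root cell walls and wounds. Of 14 tested wax genes 13 rose and 1 fell, with a median log2 fold change of 1.59, and all 12 suberin genes rose, 9 of them being induced, with a median of 3.13. MYB96 (AT5G62470), an activator of wax genes, was at 158, 141 and 171 CPM with ABA and 14.3, 11.5 and 13.6 CPM in controls (3.57 ± 0.12). CER1, which makes the alkanes of wax, had 207, 209 and 306 CPM with ABA against 24.9, 23.3 and 11.7 CPM in controls. The elongase KCS6 had 1284, 1143 and 1473 CPM with ABA against 315, 288 and 269 CPM in controls. MYB41 (AT4G28110), an activator of suberin genes, had 6.29, 6.41 and 7.39 CPM with ABA against 0.2004, 0.167 and 0.288 CPM in controls. GPAT5, which makes the glycerol esters of suberin, had 29.4, 40 and 45.4 CPM with ABA against 2.15, 3.23 and 3.84 CPM in controls. RWP1, the feruloyl transferase, had 165, 199.5 and 245 CPM with ABA against 11.8, 10.8 and 8.55 CPM in controls. ABCG6, a transporter of the suberin barrier, was at 68.5, 102 and 115 CPM with ABA and 2.91, 1.73 and 2.11 CPM in controls (5.39 ± 0.23). In the endodermis, CASP1 and CASP2 of the Casparian strip rose less, by 0.71 and 0.58.

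Lipid transfer proteins, small secreted proteins with a pocket for fatty acids, were divided. Of 62 tested (132 listed) 25 rose and 21 fell, or 23 and 30 with plain library totals. LTP4 had 8900 counts in the ABA libraries and 2 in the control libraries, a ratio of 4055 with a 95% counting interval of 1122 to 33490. Its neighbour LTP3 (AT5G59320) had 101, 142 and 184 CPM with ABA against 1.303, 1.11 and 0.672 CPM in controls (7.11 ± 0.27). EARLI1 fell, with 19.8, 14.3 and 28.9 CPM with ABA against 128, 97.3 and 100.4 CPM in controls.

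Osmolyte genes rose in part. Proline is a compatible solute, and of 6 genes of its synthesis and breakdown 5 rose and 1 fell. P5CS1 (AT2G39800), the first enzyme of its synthesis, was at 1226, 931 and 1127 CPM with ABA and 32.4, 33.8 and 33.99 CPM in controls (5.03 ± 0.13). P5CS2 rose by 1.48, or by 1.72 without control replicate 3, whereas P5CR, the second enzyme, fell (-0.65). On the breakdown side AT5G38710 rose by 2.61 and ALDH12A1 by 1.80, although ALDH12A1 overlaps another annotated gene and its counts are less certain. Without control replicate 3, 5 of the 6 genes were induced, against 3 with all controls. Of 6 tested genes listed for galactinol and raffinose synthesis 3 rose and 3 fell. SIP2, named above among the largest gains of CPM, is not on this list and rose by 2.20. GolS4, a galactinol synthase, had 7.25, 7.12 and 7.77 CPM with ABA against 0.2004, 0.223 and 0.09603 CPM in controls. GolS1 had 35.9, 30.03 and 31.5 CPM with ABA against 11.7, 12.96 and 19.9 CPM in controls, while SIP1, of the raffinose list, fell (-0.55). Of 15 starch breakdown genes 6 rose and 6 fell, or 2 and 6 with plain library totals. BAM1, the beta-amylase known from osmotic stress, had 592, 489 and 611 CPM with ABA against 57.8, 47.2 and 67.5 CPM in controls (3.29). DPE2, of maltose metabolism at night, had 81.8, 89.3 and 84.8 CPM with ABA against 130, 171 and 106 CPM in controls. Of 10 tested genes for SWEET transporters of sucrose and hexoses 6 rose and 2 fell, with a median log2 fold change of 0.64. SWEET4 (AT3G28007), with the largest rise, was at 51.7, 50.2 and 54.9 CPM with ABA and 0.251, 0.278 and 0.528 CPM in controls, a log2 fold change of 7.17. SWEET11 fell (-0.49).

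Lists of recycling and leaf senescence rose. Of 7 genes of chlorophyll breakdown 6 rose and 0 fell, with a median of 1.79. NYE1 (AT4G22920), also called SGR1, which extracts magnesium from chlorophyll, was at 77.02, 68.7 and 75.7 CPM with ABA and 8.62, 10.5 and 14.7 CPM in controls (2.71 ± 0.17). ACD1, the pheophorbide oxygenase that opens the ring, had 379.7, 354 and 422 CPM with ABA against 59.2, 57.1 and 73.2 CPM in controls. PPH, the pheophytinase, had 149, 138 and 154 CPM with ABA against 35.3, 38.1 and 54.1 CPM in controls. All 11 genes of branched-chain amino acid and lysine breakdown rose, with a median of 1.22 and 1 of them induced. AT4G33150, the bifunctional enzyme that starts lysine breakdown, was at 2211, 2080 and 2207 CPM with ABA and 179, 173 and 379.9 CPM in controls (3.15 ± 0.33). DIN4, a subunit of the branched-chain keto acid dehydrogenase, had 402, 376 and 393 CPM with ABA against 98.6, 93.2 and 206 CPM in controls. Control replicate 3 was the highest control for both genes, and without it the median of the list was 1.59, 6 members were induced and the change of DIN4 was 2.03. Without ABA replicate 2, 3 members were induced. Autophagy genes, which build the vesicles that carry cell contents to the vacuole, rose in 24 of 29 cases and fell in 1, with a median of 0.87. ATG8H, a coat protein of those vesicles, had 119, 106 and 119 CPM with ABA against 12.4, 10.2 and 21.1 CPM in controls (2.97), and ATG8B and APG8A (ATG8A) rose by 2.06 and 1.93.

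**Figure D5:**
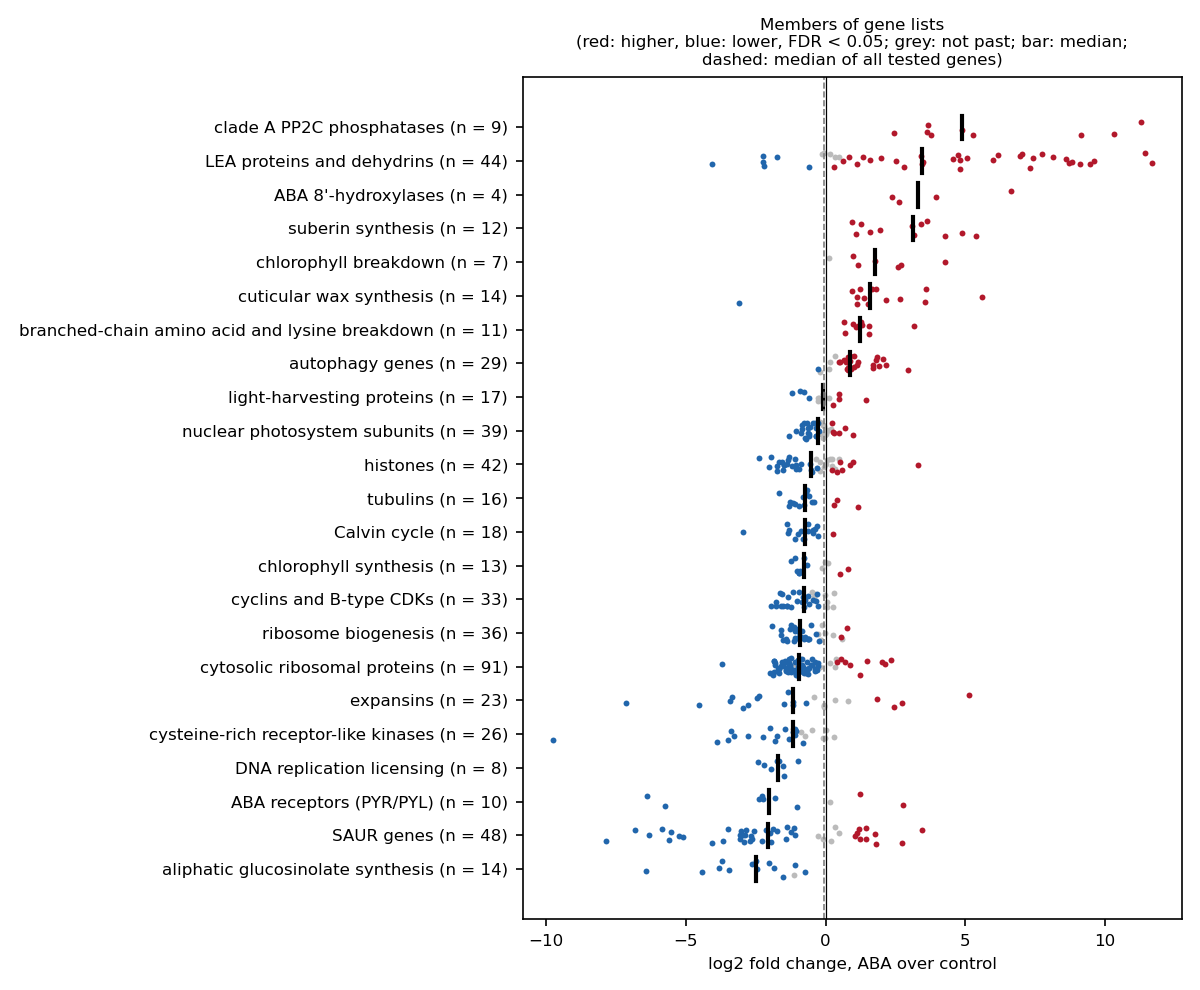
Log2 fold change of ABA over control for each tested member of the gene lists named at the left, with red points for genes that rose and blue points for genes that fell at an FDR below 0.05, grey for the others, a bar at the median of the list and a dashed line at the median of all tested genes (-0.06). PP2Cs, suberin genes and most LEA proteins lie to the right, and replication genes lie in a narrow band left of 0. Most cytosolic ribosomal proteins lie left of 0 too, but their list runs from -3.72 to 2.36. SAUR genes and expansins spread over several units in both directions.

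Photosynthesis did not fall as one. Of 18 Calvin cycle genes 17 fell and 1 rose, with a median of -0.75 and only 1 repressed. RBCS1B (AT5G38430), one of the small subunits of Rubisco, was at 37.5, 46.7 and 37.1 CPM with ABA and 342, 291 and 307 CPM in controls (-2.95 ± 0.16), whereas RBCS1A had 7518, 6933 and 7123 CPM with ABA against 10930, 11070 and 11280 CPM in controls (-0.63). Summed over the list the level was 22637 ± 863 CPM with ABA and 36093 ± 614 CPM in controls. Chlorophyll synthesis had 8 of 13 genes lower and 2 higher. GUN5, a subunit of magnesium chelatase, had 465, 456 and 407 CPM with ABA against 873, 1032 and 677 CPM in controls, while CH1, which makes chlorophyll b, had 187, 176 and 170.5 CPM with ABA against 102, 106 and 95.5 CPM in controls. Of 17 light-harvesting proteins 4 rose and 4 fell, with a median of -0.08, but 2 rose and 8 fell with upper-quartile factors, and 1 rose and 11 fell with plain library totals. LHB1B1 (AT2G34430) rose to 4532, 4300 and 3842 CPM with ABA, against 1385, 1568 and 1720 CPM in controls (1.44 ± 0.12). LHCB6 fell to 441, 489.8 and 434 CPM with ABA, against 939, 1466 and 718 CPM in controls (-1.19 ± 0.20). Nuclear genes for photosystem subunits fell in 21 of 39 cases and rose in 6, with a median of -0.28, and with plain library totals 31 fell and 1 rose. The number that rose was 3 without ABA replicate 1 or 2 and 2 without control replicate 1. Of the 3 mesophyll markers given above RBCS1A and RCA are on the Calvin cycle list too, and the part of fewer mesophyll cells in these values was not tested.

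Genes for making proteins fell, most of them by less than 3-fold. Cytosolic ribosomal proteins fell in 76 of 91 tested cases (101 listed) and rose in 9, with a median log2 fold change of -0.97. The number that was repressed, 13, depended on single controls and on the scaling, with 5 without control replicate 2, 18 without control replicate 3 and 28 with plain library totals, whereas the number that fell was 78 without control replicate 3. AT2G37600, an L36e protein, was at 4.79, 7.04 and 5.36 CPM with ABA and 21.2, 25.1 and 16.4 CPM in controls (-1.86 ± 0.24). AT2G27710, an acidic protein of the large subunit stalk, had 20.6, 22.5 and 23.1 CPM with ABA against 76.7, 132 and 51.5 CPM in controls, with a change of -1.97 that came to -1.54 without control replicate 2. Among the members that rose, AT1G53560, AT3G14595, AT5G15260 and AT3G01170 are annotated only as relatives of L18ae or L34e and may not be ribosomal proteins. The summed level of the list was 4926 ± 118 CPM with ABA and 8673 ± 1365 CPM in controls. Genes of ribosome assembly fell in 28 of 36 cases and rose in 2, with a median of -0.90, among them AT2G43110, a part of the early pre-ribosome, with 4.15, 5.696 and 6.22 CPM with ABA against 22, 23.8 and 14.98 CPM in controls.

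The promoters of these genes are known for the telo box (AAACCCTA) and site II (TGGGCC), and these were counted on both strands in the same 300-base window. The telo box was in 43 of 91 ribosomal protein promoters (47.3%) against 5.33% of all promoters, and site II in 50 of 91 (54.9%) against 18.5%. The telo box was in 1.99% of induced and 6.46% of repressed promoters, and was most frequent, at 10.6%, in genes that fell 2- to 3-fold. Site II was in 8.5% of induced and 11.6% of repressed promoters, both below the share of all promoters, with its highest share, 23.9%, in genes that fell less than 2-fold. The promoter of AT2G37600 is shown because it holds both motifs, 1 telo box and 3 sites II, in capitals. It was chosen after its values were seen.
AT2G37600, chr2:15775325-15775624, minus strand: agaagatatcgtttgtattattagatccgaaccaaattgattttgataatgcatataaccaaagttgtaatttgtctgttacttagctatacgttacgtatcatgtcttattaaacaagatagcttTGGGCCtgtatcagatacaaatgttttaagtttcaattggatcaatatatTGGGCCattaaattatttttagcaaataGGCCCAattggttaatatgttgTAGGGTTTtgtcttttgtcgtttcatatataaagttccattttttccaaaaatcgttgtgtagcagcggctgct

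Genes of DNA replication and cyclins fell. All 8 genes of DNA replication licensing fell, with a median of -1.70, and 5 were repressed (7 without control replicate 3, and 3 without ABA replicate 1 or control replicate 2). PCNA1 (AT1G07370), the sliding clamp, was at 1.87, 2.97 and 3.38 CPM with ABA and 15.6, 22.4 and 6.24 CPM in controls (-2.43 ± 0.37). MCM6, of the replicative helicase, was at 2.005, 3.31 and 3.21 CPM with ABA and 13.4, 18.8 and 7.63 CPM in controls. Control replicate 3 was the lowest control for both. Cyclins and B-type CDKs fell in 25 of 33 cases and rose in 0, with CYCB1;3 at 1.28, 1.72 and 1.12 CPM with ABA and 5.81, 6.06 and 4.37 CPM in controls (-1.96). CDK inhibitors, which hold cells back from division, were mixed, with 4 of 14 higher and 6 lower. ICK1, a Kip-related inhibitor known to respond to ABA, had 13.6, 14.2 and 19.02 CPM with ABA against 8.02, 7.62 and 5.67 CPM in controls. Tubulins fell in 13 of 16 cases. Histones fell in 23 of 42 cases and rose in 7, but their summed level was 1471 ± 78.4 CPM with ABA and 1584 ± 210.3 CPM in controls. HTA6, an H2A, had 8.66, 13.9 and 9.11 CPM with ABA against 50.6, 59.1 and 20.7 CPM in controls, whereas HIS1-3 (AT2G18050), the linker histone known to be drought-inducible, had 97.7, 103 and 94.6 CPM with ABA against 7.62, 7.73 and 14.4 CPM in controls (3.30 ± 0.23). Genes of the stomatal lineage fell in 5 of 9 cases and rose in 0. SPCH, which starts that lineage, had 7.93, 8.63 and 8.47 CPM with ABA against 21.1, 15.1 and 17.96 CPM in controls. The peptide gene EPF2 had 2.78, 2.81 and 2.89 CPM with ABA against 9.52, 6.79 and 5.91 CPM in controls.

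Wall and elongation genes changed in both directions. Expansins, which loosen walls, had 13 of 23 tested members lower and 4 higher. EXPA1 (AT1G69530) was at 3.19, 5.15 and 9.003 CPM with ABA and 157, 132 and 104 CPM in controls (-4.52 ± 0.29). EXP3 was at 3.56, 3.73 and 5.41 CPM with ABA and 45.5, 50.6 and 31.6 CPM in controls. EXPA16 was induced instead, with 119.6, 107 and 137 CPM with ABA against 3.11, 3.45 and 3.79 CPM in controls (5.13 ± 0.20), as were EXLA1, EXLA2 and EXLB1 of the expansin-like branches, at 1.84, 2.47 and 2.75. Of 28 xyloglucan-modifying XTH enzymes 10 rose and 11 fell, or 6 of 19 fell with at least 10 counts in every library. XTH31 was at 0.182, 0.503 and 0.482 CPM with ABA and 31.7, 57.8 and 19.2 CPM in controls (-6.52 ± 0.57). XTH30 was at 136, 125 and 135 CPM with ABA and 26.4, 26.8 and 46.1 CPM in controls. Pectin-modifying enzymes had 44 of 104 lower and 35 higher, with AT5G62360, of the pectin methylesterase inhibitor family, at 1.19, 1.97 and 3.11 CPM with ABA and 80.9, 61.5 and 60.3 CPM in controls. Class III peroxidases, which act on walls and on reactive oxygen, fell in 23 of 55 cases and rose in 15, with 14 repressed. With at least 10 counts in every library 41 of them were tested, 14 fell and 6 were repressed. AT5G64120 had 12.7, 14.8 and 22.6 CPM with ABA against 248, 221 and 329 CPM in controls (-4.0). Of the arabinogalactan proteins FLA9 fell to 9.12, 9.59 and 9.11 CPM with ABA, against 106, 97.5 and 104 CPM in controls. AGP2 rose to 85.5, 92.2 and 109 CPM with ABA, against 12.1, 9.51 and 11.8 CPM in controls.

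Genes of growth hormones moved in both directions. SAUR genes, short auxin-responsive genes of cell expansion, fell in 33 of 48 tested cases (78 listed) and rose in 10, with 28 repressed. Their median was -2.06, or -1.92 with genes that had no counts in any library of a group at their bound. Many members passed the filter only through libraries where they were higher. With at least 10 counts in every library 18 were tested, 8 fell and 3 were repressed, and with the wild-type libraries alone 17 of 37 were repressed. AT4G38860 had 0.911, 1.55 and 1.18 CPM with ABA against 10.97, 9.01 and 7.78 CPM in controls (-2.92). AT2G46690, also annotated as a SAUR, rose to 50.1, 51.98 and 54.7 CPM with ABA, against 21.4, 16.2 and 20.2 CPM in controls. The summed SAUR level was 252 ± 5.88 CPM with ABA and 276 ± 36.8 CPM in controls. Of 9 tested gibberellin oxidases (16 listed) 3 rose and 5 fell, or 2 of 6 fell with at least 10 counts in every library and 3 of 7 with the wild-type libraries alone. GA3OX1, which makes the active hormone, had 3.83, 3.35 and 3.43 CPM with ABA against 9.67, 9.29 and 10.6 CPM in controls (-1.48). GA2OX6, which inactivates it, had 23.9, 19.1 and 21.7 CPM with ABA against 5.71, 5.01 and 5.62 CPM in controls (1.98). GA2OX2, another inactivating enzyme, and GA20OX2, of synthesis, also rose, by 1.40 and 1.25. GASA peptides, known as gibberellin-regulated, split. GASA3 had 23.6, 22.03 and 19.8 CPM with ABA and 0 counts in all 3 controls, at least 142-fold higher, while GASA4 had 20.4, 29.9 and 23.2 CPM with ABA against 164, 81.1 and 107 CPM in controls (-2.26). Type-A response regulators, the early cytokinin-induced repressors, fell in 6 of 9 cases and rose in 1, with ARR7 at 2.78, 2.97 and 2.304 CPM with ABA and 11.1, 13.5 and 9.46 CPM in controls. In brassinosteroid synthesis CYP90D1 had 2.096, 1.801 and 2.197 CPM with ABA against 11.8, 10.1 and 11.96 CPM in controls. ROT3, a related hydroxylase, had 36.7, 31.9 and 39.4 CPM with ABA against 15.6, 12.6 and 16.2 CPM in controls. JAZ repressors of jasmonate signalling rose in 5 of 10 cases and fell in 3, with JAZ1 at 147, 108 and 132 CPM with ABA and 40.3, 35.8 and 42.5 CPM in controls and JAZ4 at 2.28, 1.84 and 2.79 CPM with ABA and 8.67, 6.12 and 11.7 CPM in controls.

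Genes of several defence lists fell more often than they rose. Aliphatic glucosinolates are methionine-derived compounds that deter insects, and 13 of the 14 genes of their synthesis fell, 10 of them repressed, with a median of -2.49. IMS2 (AT5G23020), which lengthens the methionine chain, was at 0.8203, 0.963 and 0.643 CPM with ABA and 78.02, 77.6 and 56.9 CPM in controls (-6.42 ± 0.20, edgeR FDR 1.25e-11). CYP79F2, of the next step, was at 0.8203, 1.298 and 0.589 CPM with ABA and 23.1, 27.7 and 9.22 CPM in controls. The activators of the pathway fell too, MYB28 with 3.87, 7.29 and 5.41 CPM with ABA against 39.9, 32.99 and 19.7 CPM in controls and MYB29 with 0.547, 0.838 and 0.322 CPM with ABA against 11.1, 9.73 and 2.26 CPM in controls. Control replicate 3 was the lowest control for each of these genes, and without it all 14 genes fell, with 11 repressed and a median of -2.81. Of 8 genes of indole glucosinolate synthesis 6 fell and 2 rose, with CYP79B3 at 6.29, 9.63 and 7.18 CPM with ABA and 42.7, 66.3 and 31.2 CPM in controls.

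Among immune receptors and their partners the direction was the same. Cysteine-rich receptor-like kinases fell in 18 of 26 tested cases (40 listed) and rose in 0, with 10 repressed and a median of -1.18. CRK29 (AT4G21410) was at 7.75, 6.53 and 6.91 CPM with ABA and 72.2, 80.4 and 85.1 CPM in controls (-3.49 ± 0.10). Its neighbour CRK28 was at 2.14, 2.597 and 2.95 CPM with ABA and 24.6, 25.98 and 29.1 CPM in controls. CRK30 had 1 count in the ABA libraries and 1074 in the control libraries. NLR receptors, which sense pathogen effectors inside the cell, fell in 65 of 136 cases and rose in 16, with 21 repressed. With at least 10 counts in every library 9 of 113 NLR receptors were repressed. AT1G58602 had 40.6, 37.3 and 45.4 CPM with ABA against 156, 152 and 146 CPM in controls (-1.88). Receptor-like proteins fell in 19 of 36 cases and rose in 7. Of 10 tested genes of salicylic acid immunity 7 fell and 1 rose, with EDS1 and PAD4, which act together downstream of such receptors, at -1.06 and -1.69, and the marker PR5 at 0.8203, 0.628 and 0.482 CPM with ABA and 7.82, 9.402 and 6.15 CPM in controls. Neighbouring receptor genes can share sequence, and the counts of single members are less certain than those of single-copy genes.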

How the data were processed

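RNA-seq libraries of whole seedlings were counted per gene. The authors trimmed reads, aligned them to TAIR10 with HISAT2 and deposited raw HTSeq counts for 33602 genes (the submitters' notes name Trimmomatic 0.36, HISAT2 2.1.0 and HTSeq 0.9.1). Whether reads were counted by strand is not given in the sources used here. Counts were tested with edgeR 4.0.16 (R 4.3.3; TMM factors, filterByExpr by group, quasi-likelihood test, 4 group means over 12 libraries). A gene was called at an FDR below 0.05 and at least 3-fold. SEs are the log2 fold change over the root of F. The alternatives were DESeq2 1.42.0, other scalings and filters, a replicate block and leaving out each library. Named genes were the largest changes of each list and of the factors with at least 5 CPM and no overlap between groups, the 10 largest gains and losses of CPM, and genes the study names. The members and lists were chosen with earlier results of these data known. Motifs were searched in RefSeq promoters (TAIR10.1). The test was checked on simulated counts with the same spread for all genes and few genes changed. Of 20066 unchanged genes 9 passed the FDR, and all 34 genes raised 4-fold were called. A change of most genes, as in these data, was not simulated. Ratios of groups with up to 3 counts per library carry exact 95% intervals for counting error only.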

Additional observations from a re-analysis of the deposited data

How the results depend on the processing

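Without the fold minimum 6636 genes rose and 7500 fell, and at 2-fold the counts were 2643 and 3344, with 1481 and 1476 at 3-fold. Repressed genes came to 2313 with plain library totals and to 798 when at least 10 counts were required in every library, a filter that leaves out genes absent from a group. Leaving out single libraries gave 1416 to 1635 induced and 1355 to 1794 repressed genes, the highest values without control replicate 3. Of 7116 log2 values of named genes under alternatives 7018 stayed on their side of the FDR, 93 did not, and 5 reversed. These 5 were RPE -0.038, NPR1 -0.071, ARF10 -0.063, Lhca5 -0.049 and PSAE-2 -0.019, all with plain library totals. The medians of 5 lists reversed under the same scaling, to -0.157 for starch breakdown, -0.137 for nitrate, -0.099 for bZIP factors, -0.2 for Aux/IAA repressors and -0.156 for all listed factors. That of gibberellin oxidases reversed to 0.424 with at least 10 counts in every library. A median counted as reversed only when it changed sign and both values exceeded its spread between replicates. Other medians also changed sign with plain library totals, among them those of WRKY (0.03 to -0.27), bHLH (0.03 to -0.28) and AP2/ERF factors (0.13 to -0.17). Using only the bases before the start, the ABRE core was in 41.1% of induced and 22% of repressed promoters, the longer ABRE in 17.7% and the G-box in 15.6% of induced ones, the W-box in 26.5% and 32.9%, the evening element core (AATATC) in 26.3% and 25.6%, and the telo box in 3.79% of repressed ones. At 2-fold, the ABRE core was in 44.1% and the G-box in 16.9% of induced promoters, and the telo box in 8.79% and site II in 18% of repressed ones.

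With the replicate number as a block, 1487 genes were induced and 1463 repressed. Whether the numbers pair the samples is not given in the sources used here. The deviations of same-numbered libraries correlated at -0.137, 0.103 and -0.089, and ABA replicate 1 correlated best with control replicate 3 (0.285). With 3 libraries a group these values cannot settle whether the samples were paired.

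The precision is set by 3 libraries a group, with a biological coefficient of variation of 11.9% over all genes. Genes with few counts, such as AHG1, MYB121 or HSFA6A, have folds that single control libraries move, and 10 of 54 LEA genes and 30 of 78 SAUR genes were too low to be tested.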

Other observations

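The circadian clock, nutrient and water transport lists held further changes. Of 16 clock genes 9 rose and 1 fell, with a median log2 fold change of 0.54, and 14 of their promoters held an ABRE core. CCA1 (AT2G46830), a morning factor of the central loop, was at 62.3, 60.8 and 41.6 CPM with ABA and 12.8, 8.901 and 9.94 CPM in controls (2.38 ± 0.18), and the groups did not overlap. AT5G64170, known as LNK1, was at 194, 180.5 and 174 CPM with ABA and 63.7, 56.6 and 57.95 CPM in controls, and its log2 fold change of 1.62 was 1.58, short of 3-fold, without ABA replicate 1. The hour of harvest of the groups is not given in the sources used here, so the part of the time of day was not tested. Among 7 tested iron uptake genes 3 fell and 0 rose, with FRU (FIT), the factor that switches uptake on in roots, at 1.32, 1.89 and 1.72 CPM with ABA and 9.37, 7.51 and 9.94 CPM in controls. Of 4 ferritins, which store iron, 2 rose and 1 fell. FER1 was at 1950, 1885 and 2412 CPM with ABA and 482, 415 and 790.4 CPM in controls, while FER3 fell (-0.515). Of 28 aquaporins 14 rose and 6 fell, among them PIP1C, a water channel of the plasma membrane, with 1037, 911 and 938 CPM with ABA and 338, 315 and 469 CPM in controls, and RD28 with 21.1, 18.9 and 21.8 CPM with ABA and 35.1, 30.9 and 45.9 CPM in controls. Of 8 nitrate genes 3 rose and 1 fell, or 4 fell with plain library totals. NRT1.1, a nitrate transporter and sensor, and NIA1, a nitrate reductase, rose by 0.86 and 0.73. The member that fell, NRT2:1, a nitrate transporter of roots, had 0.0456, 0.293 and 1.29 CPM with ABA and 9.42, 16.3 and 2.401 CPM in controls, and its log2 fold change of -4.19 was -5.69 without ABA replicate 3 and -3.53 without control replicate 2.

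Of 15 flavonoid genes 7 rose and 3 fell, and TT8, a bHLH activator of late flavonoid steps, was at 11.9, 9.13 and 12.4 CPM with ABA and 0.752, 0.723 and 0.672 CPM in controls (3.95 ± 0.21). Glutathione S-transferases, which detoxify reactive compounds, rose in 28 of 52 cases and fell in 13. GSTU4 was at 41.2, 37.1 and 40.1 CPM with ABA and 6.11, 2.34 and 6.002 CPM in controls, and GSTF14 was at 0.319, 0.544 and 0.268 CPM with ABA and 12.5, 13.02 and 8.98 CPM in controls. AGL20 (SOC1), a MADS-box factor known for promoting flowering, rose to 90.3, 89.5 and 88.8 CPM with ABA, against 31.2, 24.7 and 26.9 CPM in controls. Induced and repressed genes were alike in structure, with a median of 3 exons in both classes, against 5 over all tested genes with a promoter, and with 22.2% and 21.5% of single-exon genes, against 13.7%. Of the induced genes 20.6% and of the repressed genes 18.8% were on any of the 86 lists, so that most of the changed genes belong to groups not described here.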
